A study of Homo sapiens with 18 samples.

Results

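The 10 genes described here encode the steps by which a cell takes up glucose and turns it into pyruvate and lactate: the glucose transporters SLC2A1, SLC2A3 and SLC2A8, the hexokinases HK1 and HK2, the phosphofructokinase PFKP, the aldolase ALDOC, the pyruvate kinase PKM and the lactate dehydrogenase subunits LDHA and LDHB. They were picked by symbol from a table of 26372 gene symbols, with their levels in the 6 groups already known. They were thus chosen by the same values that are reported here, so their levels and differences are given as a description and no p-value is printed for any of them. All 10 were listed in the table, and 9 of the 10 passed the filter on low values, a mean of at least 1 FPKM over all libraries. SLC2A3 did not pass it.

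The libraries were made from the human neuroblastoma line SH-SY5Y, an established cell line obtained from ATCC. Cells received a lentivirus (FUGW plasmid) carrying ZNHIT3, a factor in the assembly of small nucleolar ribonucleoproteins, as the wild type sequence (WT), with the C14R substitution (C14R), or with a short deletion (deletion). Each form was sampled before differentiation (day 0) and 18 days into it (day 18), with 3 libraries in each of 6 groups and 18 in all. The deletion is labelled as 251 to 254 in replicate 1, 251 to 255 in replicate 2 and 251 to 256 in replicate 3, without saying whether these count bases or residues, and all 3 were treated as a single group. The titles of this group call it Depleted and do not say what was depleted. Differentiation took place in serum-free neurobasal medium with B27, BDNF, KCl, dibutyryl cyclic AMP and all-trans retinoic acid, whereas maintenance used MEM with fetal bovine serum, so time and medium cannot be told apart in a comparison of the 2 days. No group without virus was among the samples, and whether the cells' own ZNHIT3 was present in each group is not stated. Nothing in the labels says that the 3 libraries of a group came from separate cultures, so the errors below measure the spread between these libraries, which may be technical.

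In glycolysis, glucose enters the cell through facilitative transporters of the SLC2A (GLUT) family, is trapped as glucose 6-phosphate by a hexokinase, and is committed to breakdown by phosphofructokinase. Aldolase then splits the 6-carbon sugar, pyruvate kinase makes pyruvate and ATP in the last step, and lactate dehydrogenase converts pyruvate to lactate and back. Most steps have several isoenzymes. Proliferating and tumour cells are known for HK2, the M2 splice form of PKM, and LDHA, and neurons for HK1, the M1 form of PKM, ALDOC in some neuron types, ENO2 and the transporter SLC2A3.

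Promoters of 3 of the genes hold the palindrome CACGTG, an E-box that MYC and related factors are known to bind and that contains the ACGTG core of hypoxia response elements. RefSeq promoter sequences (GRCh38.p14) matched 9 of the 10 symbols with 20 start sites; there was none for SLC2A3. In the 250 bases before the start, CACGTG was present in 3 of the 20 windows, those of HK2, LDHA and ALDOC, against 6.34% of all 35116 promoter windows of the same length. ACGTG on either strand, which includes every CACGTG, was present in 5 windows of 4 genes, against 18.5% of all windows. GCGTG on either strand was present in 6 windows of 5 genes, against 32.2% of all windows. The 5 CACGTG sites, of which HK2 and LDHA held 2 each, are printed with the bases around them. Each is given 5′ to 3′ on the strand of its gene, with CACGTG in capitals.
HK2, chr2:74834964-74834993, plus strand, 194 bases before the start: gattgctgcgccCACGTGggagggagcccc
HK2, chr2:74835009-74835038, plus strand, 149 bases before the start: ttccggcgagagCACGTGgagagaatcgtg
LDHA, chr11:18394366-18394395, plus strand, 185 bases before the start: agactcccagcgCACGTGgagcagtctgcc
LDHA, chr11:18394464-18394493, plus strand, 87 bases before the start: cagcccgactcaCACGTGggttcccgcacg
ALDOC, chr17:28577116-28577145, minus strand, 240 bases before the start: aagtgcccggCACGTGgtaaagggattgtg
In GENCODE v29 the HK2 sites lie inside the gene's span but in no exon, the second LDHA site and the ALDOC site lie in an untranslated exon of another annotated transcript of the same gene, and CACGTG of the first LDHA site lies just before that exon. A match of letters is a description of the sequence and not a measured binding site. ALDOC also holds the motif. In the values as deposited it differed least between the days in WT cells among the 9 tested genes, and under another scaling, given below, HK1 did. What the motif does in these cells was not tested.

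The delivered gene separated the groups in the order of its labels. At day 0 WT cells had 538 ± 6.33 FPKM of ZNHIT3, C14R cells 424 ± 7.09 and deletion cells 303 ± 9.40 (SD, n = 3), and at day 18 the same groups had 1153 ± 46.1, 653 ± 88.9 and 302 ± 9.89. The values do not separate the delivered from the cells' own transcript. Of the noradrenergic neuroblastoma markers, HAND2 lay between 263 and 307 FPKM, GATA3 between 68.2 and 103 and DBH between 56.2 and 476 over the 18 libraries, and TH was near 0, at most 1.03 FPKM. Summed neuron markers were at 736 to 767 FPKM at day 0 and 1425 to 1592 at day 18, although RBFOX3 stayed at 0.502 FPKM or less. Summed proliferation markers were at 268 to 296 FPKM at day 0 and 98.0 to 127 at day 18. The 7 fibroblast or mesenchymal markers summed to 247 to 277 FPKM at day 0, mostly COL3A1, and to 32.4 to 49.3 at day 18, with COL1A2 at 0.794 FPKM or less throughout. The 6 Schwann or glial markers summed to 3.12 to 4.78 and 7.26 to 9.19 FPKM, and those of leukocytes to 5.52 to 6.98 and 1.14 to 2.36, nearly all of it CD68. The 4 endothelial markers summed to at most 0.231 FPKM. Most of these lists differed between the days, as did most of the 10 genes, and the part of the lists in the results was not tested. In whole-culture RNA, fewer cells of a type and less RNA per cell cannot be told apart. On the first principal component, with 86.9% of the variance, every day 0 library lay on one side and every day 18 library on the other. C14R replicate 1 of day 18 stood apart on the second (2.49%).

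Levels are given in FPKM, fragment numbers divided by the length of the transcript and by the size of the library, which can be compared between genes. Averaged over all libraries, the order was LDHB (382 FPKM), PKM (259), LDHA (206), PFKP (53.0), HK1 (44.4), ALDOC (20.0), HK2 (13.5), SLC2A1 (9.68), SLC2A8 (3.28) and SLC2A3 (0.136). PKM and LDHA were neighbours that overlapped in C14R cells at day 0 and in no other group. HK1 lay above PFKP at day 0 in WT and C14R cells and below it at day 18 in every library. In deletion cells at day 0, HK1 (46.5 to 49.5 FPKM) and PFKP (45.7 to 46.7) overlapped.

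**Figure D1:**
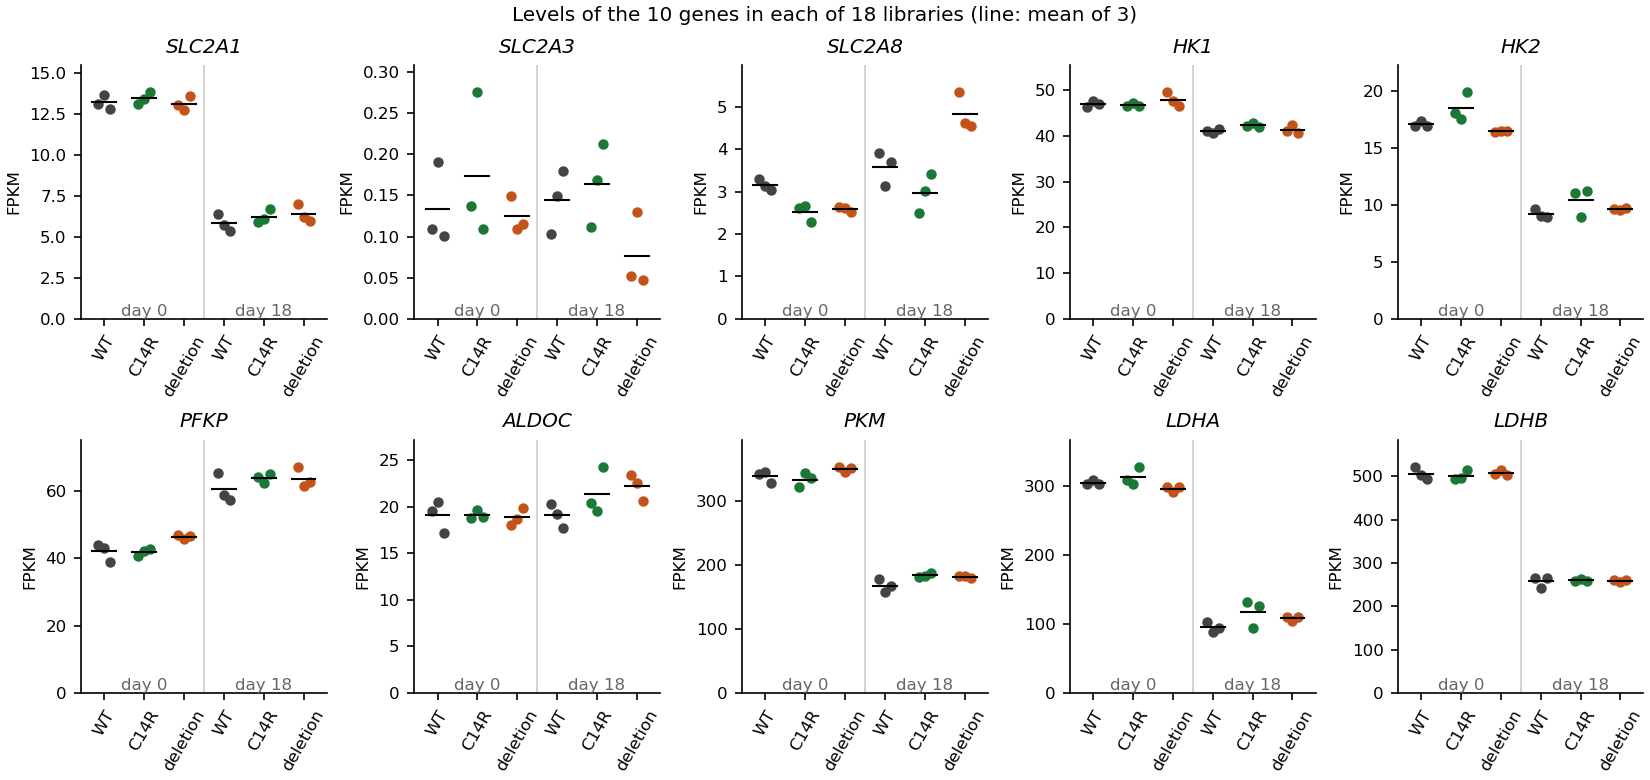
FPKM (vertical axes, starting at 0, a different scale for each gene) of the 10 genes in each of the 18 libraries; points are libraries, coloured by ZNHIT3 form, and black lines are means of 3. SLC2A1, HK1, HK2, PKM, LDHA and LDHB are lower in all day 18 libraries than in all day 0 libraries, PFKP is higher, and SLC2A3 stays at 0.275 FPKM or less.

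Day 18 was compared with day 0 within each ZNHIT3 form to ask how these genes differ between undifferentiated and differentiated cultures. Log2 differences are on the log2(FPKM + 1) scale, with the standard error from a limma model of all 18 libraries. In WT cells 7 of the 9 tested genes passed the model's threshold (Benjamini-Hochberg adjusted p under 0.05), 1 higher and 6 lower, where 72.2% of all 13785 tested genes passed it. In C14R cells it was the same 7 genes in the same directions, beside 72.9% of all genes, and in deletion cells all 9, 3 higher and 6 lower, beside 73.0% of all genes. Nothing is read from these counts, since the members were selected on these contrasts. The median log2 difference of all tested genes was near 0, at 0.03 in WT, 0.02 in C14R and 0.03 in deletion cells.

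Among the transporters, SLC2A1 (GLUT1), the widely expressed high-affinity glucose carrier, was the most abundant at day 0. At day 0 its levels were 13.1, 13.6 and 12.8 FPKM in WT, 13.1, 13.4 and 13.8 in C14R and 13.0, 12.7 and 13.6 in deletion cells. At day 18 they were 6.41, 5.70 and 5.37 FPKM in WT, 5.90, 6.06 and 6.68 in C14R and 6.999, 6.17 and 5.93 in deletion cells. The highest day 18 library lay well below the lowest day 0 library, and the 3 forms overlapped on each day. The day 18 mean was 44.2% of the day 0 mean in WT, 46.3% in C14R and 48.6% in deletion cells, a log2 difference of -1.06 (SE 0.0664), -1.001 and -0.94. SLC2A1 made up 44.0% ± 1.59 of the summed FPKM of the 14 SLC2A genes in WT cells at day 0 and 17.1% ± 1.13 at day 18 (SD, n = 3). Its annotated span, chr1:42925375-42959176 on the minus strand (GENCODE v29, GRCh38), is overlapped for short stretches by other annotated RNAs, among them an antisense RNA.

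SLC2A3 (GLUT3), the transporter best known from neurons, was scarcely detected. Its level lay between 0.0471 and 0.275 FPKM over the 18 libraries, the 2 lowest values were of deletion libraries at day 18, and it was not tested. SLC2A14, its near-identical paralog, was listed at 0 in most libraries and at 0.0748 FPKM or less in the rest.

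SLC2A8 (GLUT8) is a transporter that resides mainly on intracellular membranes. At day 0 its levels were 3.29, 3.12 and 3.04 FPKM in WT, 2.61, 2.67 and 2.28 in C14R and 2.65, 2.61 and 2.53 in deletion cells. At day 18 they were 3.92, 3.14 and 3.70 FPKM in WT, 2.504, 3.02 and 3.41 in C14R and 5.34, 4.62 and 4.54 in deletion cells. The days overlapped in WT and in C14R cells, and in deletion cells every day 18 library was above every day 0 library. The log2 difference between the days was 0.14 in WT, 0.17 in C14R and 0.70 in deletion cells (SE 0.0903). The other comparisons of SLC2A8 between the forms are given below.

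The hexokinases differed from each other. HK2, the inducible isoenzyme, stood at 16.9, 17.3 and 16.9 FPKM in WT, 18.0, 17.5 and 19.8 in C14R and 16.4, 16.5 and 16.4 in deletion cells at day 0. At day 18 it was at 9.58, 9.02 and 8.94 FPKM in WT, 10.998, 8.90 and 11.2 in C14R and 9.63, 9.57 and 9.68 in deletion cells. All day 18 libraries were below all day 0 libraries, and in C14R cells at day 18 replicate 2 was lower than the other 2. The day 18 mean was 53.9%, 56.2% and 58.6% of that at day 0 in WT, C14R and deletion cells, a log2 difference of -0.83 (SE 0.0661), -0.78 and -0.71.

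HK1, the constitutive isoenzyme that predominates in brain, was at 46.4 to 49.5 FPKM at day 0 and at 40.6 to 42.8 FPKM at day 18 over the 9 libraries of each day. The ranges did not overlap, but the log2 difference was small, at -0.19 in WT, -0.14 in C14R and -0.21 in deletion cells (SE 0.0325). Its direction depended on the scaling: with the small RNA genes left out and the libraries rescaled, the log2 difference of HK1 was 0.01, 0.04 and 0.01. With median-of-ratios scaling it stayed negative, at -0.24, -0.18 and -0.26, and with quantile normalization at -0.23, -0.19 and -0.24. Within the hexokinase family, HK2 made up 26.3% ± 0.0969 of the summed FPKM in WT cells at day 0 and 17.8% ± 0.538 at day 18, and HK1 72.5% ± 0.256 and 79.9% ± 0.872 (SD, n = 3). HK3 and HKDC1 each had a mean share of 0.57% or less in WT cells on both days. Shares within a library do not change when the whole library is multiplied by a single factor, though quantile normalization can change them.

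PFKP, the platelet-type phosphofructokinase, was the one gene of the 9 that was higher at day 18 without overlap in all 3 forms. At day 0 it was at 43.9, 43.0 and 39.0 FPKM in WT, 40.5, 42.0 and 42.6 in C14R and 46.7, 45.7 and 46.6 in deletion cells. At day 18 it was at 65.3, 58.6 and 57.2 FPKM in WT, 64.0, 62.2 and 64.8 in C14R and 67.1, 61.3 and 62.4 in deletion cells. Every day 18 library exceeded every day 0 library. The ratio of means was 144% in WT, 153% in C14R and 137% in deletion cells, a log2 difference of 0.51 (SE 0.0524), 0.60 and 0.45. Among the 3 phosphofructokinase genes, PFKP held 42.0% ± 1.07 of the FPKM in WT cells at day 0 and 52.8% ± 0.644 at day 18, while the muscle type PFKM held 41.4% ± 1.58 and 30.4% ± 0.701 and the liver type PFKL 16.7% ± 0.641 and 16.9% ± 0.612 (SD, n = 3).

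ALDOC, the aldolase isoenzyme of brain, differed least of the 9 tested genes between the days in WT cells, in the values as deposited. With the small RNA genes left out, its log2 difference in WT cells was 0.20 and that of HK1 was 0.01. Over the 9 day 0 libraries it lay between 17.2 and 20.5 FPKM, with a median of 18.9, and over the 9 day 18 libraries between 17.7 and 24.3, with a median of 20.4. The days overlapped in WT and in C14R cells. In deletion cells the day 18 libraries, at 23.5, 22.6 and 20.7 FPKM, were all above those of day 0, at 18.1, 18.6 and 19.8. The log2 difference was 0.00 in WT, 0.15 in C14R and 0.22 in deletion cells (SE 0.0776). Its share of the 3 aldolase genes was nonetheless larger at day 18, 13.4% ± 0.704 against 8.75% ± 0.664 in WT cells (SD, n = 3), beside a lower level of ALDOA, the main aldolase, at 199 FPKM on day 0 and 123 on day 18. The annotated span of ALDOC (chr17:28573115-28577264, minus strand) is shared whole with another annotated protein-coding gene and partly with an antisense gene, and how fragments were divided among them is not given in the sources used here.

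PKM encodes both the M1 and M2 forms of pyruvate kinase by alternative splicing, and a value per gene does not separate them. At day 0 PKM was at 342, 345 and 327 FPKM in WT, 322, 343 and 335 in C14R and 353, 345 and 350.4 in deletion cells. At day 18 it was at 178, 157 and 167 FPKM in WT, 181.5, 182 and 188 in C14R and 183, 183 and 179 in deletion cells. The day 18 level was 49.6% of that at day 0 in WT, 55.1% in C14R and 51.9% in deletion cells, with no overlap. The log2 difference was -1.01 (SE 0.0414), -0.85 and -0.94. PKLR, the liver and red cell pyruvate kinase, was at 1.28 FPKM on day 0 and 3.24 on day 18 in WT cells, so PKM made up 99.6% of their sum on day 0 and 98.1% on day 18.

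The lactate dehydrogenases were the most abundant pair. LDHA, the subunit that predominates in the muscle enzyme and favours the making of lactate, showed the greatest difference between the days of the 9 genes tested, in each of the 3 forms. At day 0 it was at 302, 309 and 302 FPKM in WT, 309, 303 and 328 in C14R and 299, 292 and 298 in deletion cells. At day 18 it was at 103, 88.4 and 94.3 FPKM in WT, 131, 93.5 and 126 in C14R and 110.5, 104 and 111 in deletion cells. Every day 18 library was less than all those of day 0, and C14R replicate 2 of day 18 lay with the WT libraries while the other 2 C14R libraries lay above them. The day 18 mean was 31.3%, 37.3% and 36.7% of that of day 0 in WT, C14R and deletion cells, a log2 difference of -1.67 (SE 0.0882), -1.43 and -1.44.

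LDHB, the heart-type subunit, was the most abundant of the 10 genes in every group. It was at 522, 502 and 494 FPKM in WT, 494, 495 and 515 in C14R and 506, 515 and 504 in deletion cells at day 0. It was at 266, 243 and 265 FPKM in WT, 259, 263 and 259 in C14R and 261, 255 and 261 in deletion cells at day 18. The 3 forms overlapped on both days, and the day 18 mean was 51.0%, 51.9% and 51.0% of the day 0 mean, with a log2 difference of -0.97 (SE 0.0379), -0.94 and -0.97. LDHA thus made up 37.6% ± 0.777 of the LDHA and LDHB sum in WT cells at day 0 and 27.0% ± 0.876 at day 18, and in deletion cells 36.8% and 29.5% ± 0.406. In C14R cells it made up 38.4% at day 0, and 33.7%, 26.2% and 32.7% in the 3 libraries of day 18. LDHB (chr12:21635342-21757857, minus strand) overlaps another annotated protein-coding gene and a long antisense gene, and the annotation names 3 pseudogenes of LDHB, 5 of PKM and 6 of LDHA, whose reads may be divided in ways that the sources used here do not give.

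**Figure D2:**
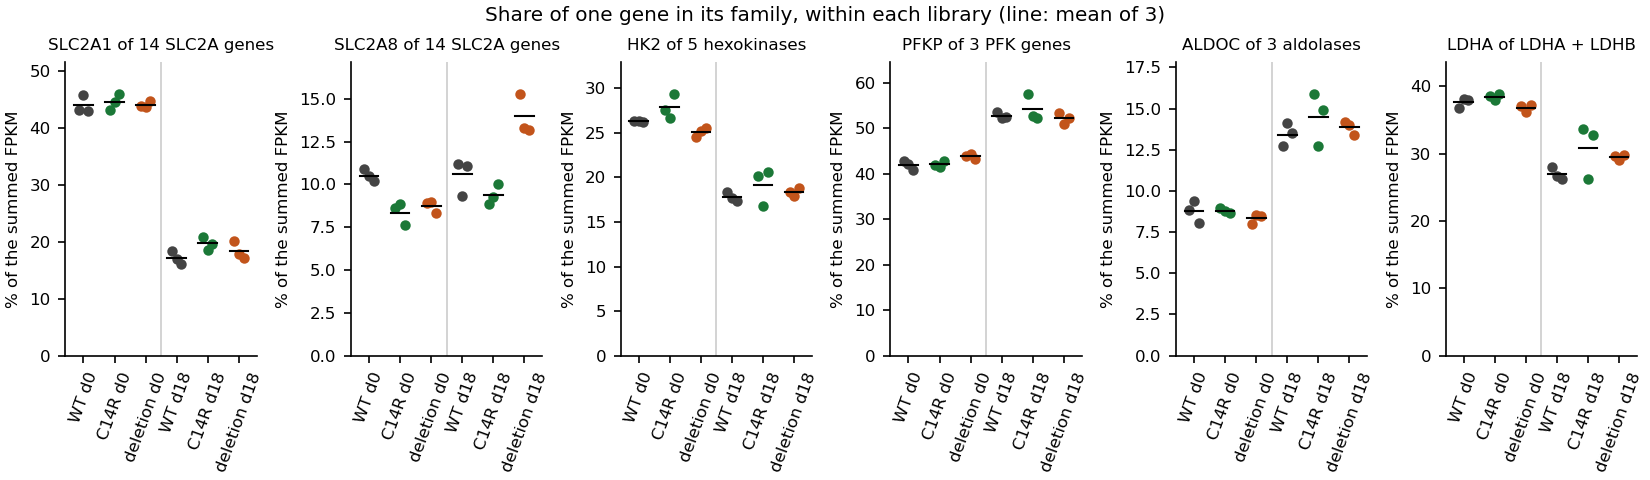
Share of one gene in the summed FPKM of its family (vertical axes, percent, starting at 0) within each library; points are libraries coloured by ZNHIT3 form, d0 and d18 are the days, and black lines are means of 3. The shares of SLC2A1, HK2 and LDHA are lower and those of PFKP and ALDOC higher in all day 18 than in all day 0 libraries, and SLC2A8 is highest in deletion cells at day 18 (13.2% to 15.3%).

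The size of these differences depended on how the libraries were scaled. The 495 small RNA genes in the table held between 31.4% and 80.1% of the summed FPKM of a library. FPKM are divided by transcript length, so this is not a share of fragments. Median-of-ratios scaling gave the libraries factors between 0.9825 and 1.031. Whether small RNA content acted on the differences was not tested. Leaving them out and rescaling each library to the same sum moved the median log2 difference of all genes from 0.03 to 0.21 in WT cells, and the share of higher among the genes called from 52.9% to 68.6%. In C14R cells that share went from 52.0% to 66.4%, and in deletion cells from 52.8% to 69.4%. Relative to the median of all genes, LDHA differed by -1.69 as deposited and by -1.67 after that rescaling in WT cells, and HK1 by -0.22 and -0.19. With the small RNA genes left out, SLC2A8 and ALDOC passed the threshold as higher at day 18 in all 3 forms, and HK1 passed it in none. The other 6 genes kept their directions and their side of the threshold.

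**Figure D3:**
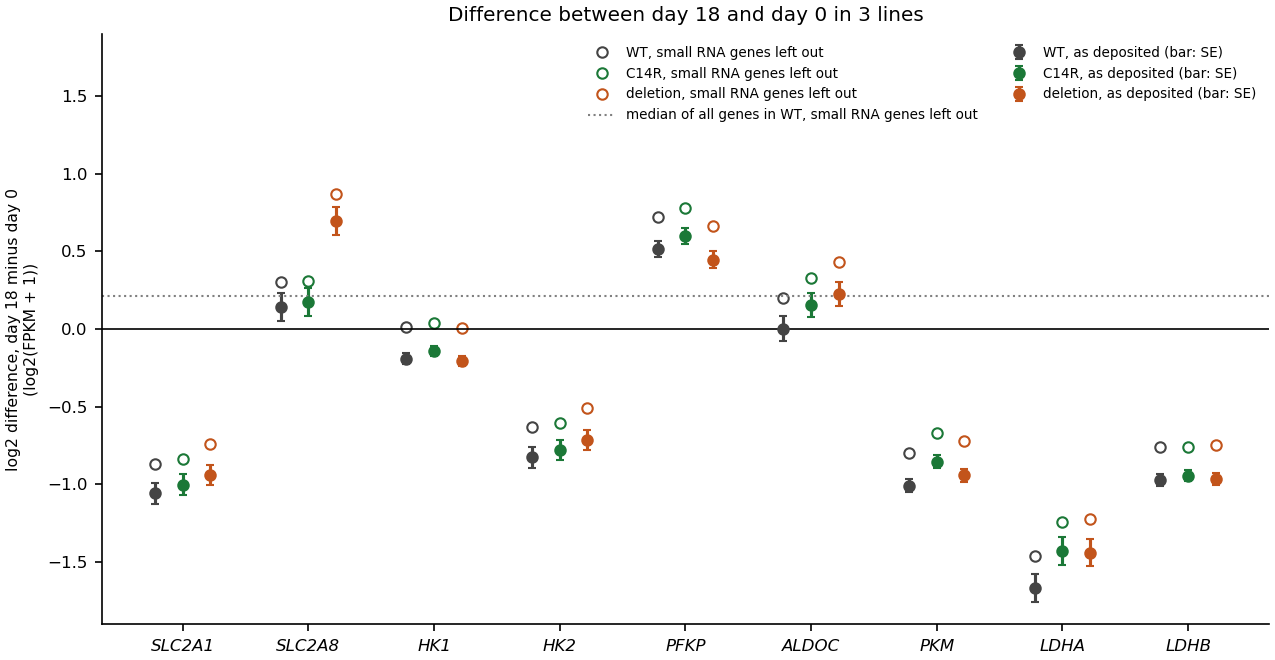
Log2 difference of day 18 minus day 0 on the log2(FPKM + 1) scale (vertical axis) for the 9 tested genes in WT, C14R and deletion cells; filled points with SE bars are from the values as deposited and open points from the values with small RNA genes left out, whose median over all genes in WT cells is the dotted line. LDHA lies lowest, at -1.67 in WT cells, PFKP lies above 0 in all 3 forms, and HK1 crosses 0 with the scaling.

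Patterns across the 18 libraries followed the day. By Pearson correlation of log2(FPKM + 1), a description over libraries that share 2 days, the tested gene closest to HK2 was LDHA (r = 0.99), and those closest to LDHA, LDHB, PKM and SLC2A1 were RGS4 (r = 0.997), CAV1 (r = 0.998), RPL10A (r = 0.998) and RPS3 (r = 0.996). PFKP was closest to LINC00525 (r = 0.99), HK1 to MOV10 (r = 0.99), SLC2A8 to FAM71E1 (r = 0.88) and ALDOC to RHOBTB2 (r = 0.81). After subtracting each group's mean, HK2 and LDHA still deviated together, with r = 0.92 over 18 libraries and 0.738 over the 15 libraries without C14R at day 18. The deviations of SLC2A1 went with those of ALDOC (r = 0.798) and PFKP (r = 0.783). These libraries share their depth and composition within a column, and nothing is read from the correlations about shared control.

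The ZNHIT3 forms were compared with each other on each day to ask whether the forms differ in these genes. Of the 9 tested genes, 0 passed limma's adjusted threshold for C14R against WT at day 0, where 0 of all genes (0%) did, and 0 at day 18, where 0.0363% of all genes did. For deletion against WT, 0 of the 9 passed at day 0 (0.0290% of all genes) and 0 at day 18 (0.0725%). For C14R against deletion, 0 passed at day 0 (0.0580%) and 1, SLC2A8, at day 18 (0.0290%). The interaction of form with day gave 0 of the 9 for C14R (0% of all genes) and 0 for deletion (0.0145%). At an unadjusted p under 0.05, C14R against WT had 1 of the 9 at day 0 (2.81% of all genes, 388) and 4 at day 18 (11.1%). Deletion against WT had 2 at day 0 (6.22%) and 4 at day 18 (11.4%), and C14R against deletion had 2 (9.84%) and 1 (11.2%). The C14R interaction had 1 (5.73% of all genes, 790) and the deletion interaction 1 (7.36%). The 9 genes were chosen with their levels in these groups known, so nothing is read from these counts either.

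SLC2A8 was the gene in which the forms stood furthest apart. At day 0 the C14R libraries (2.28 to 2.67 FPKM) and the deletion libraries (2.53 to 2.65) all lay below the WT libraries (3.04 to 3.29). At day 18 the 3 deletion libraries (4.54 to 5.34) lay above all WT (3.14 to 3.92) and all C14R libraries (2.504 to 3.41), which overlapped. The log2 difference from WT was -0.24 for C14R and -0.21 for deletion at day 0, and -0.21 and 0.35 at day 18 (SE 0.0903). The C14R mean at day 18 was 61.6% of the deletion mean, a log2 difference of -0.56. That difference stayed between -0.69 and -0.47 in 25 other settings, and the call was present in 8 of them. As a share of the SLC2A family in each library, SLC2A8 was at 13.2% to 15.3% in deletion, 9.33% to 11.2% in WT and 8.86% to 10.0% in C14R cells at day 18.

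Other members differed by less than SLC2A8 between the forms and WT at day 0, and between deletion cells and either other form at day 18. For C14R against WT at day 18, LDHA differed by more (0.28) than SLC2A8 (-0.21). For C14R against deletion at day 0, HK2 differed by 0.16 and SLC2A8 by -0.03. At day 18 the deletion libraries did not overlap with WT for 4 of the 9 genes, all higher (SLC2A8, ALDOC, PKM and LDHA), beside 18.9% of all genes that did not overlap. At day 18 the C14R libraries did not overlap with WT for 2, HK1 and PKM, both higher, beside 11.1% of all genes. At day 0 deletion and WT did not overlap for 5, with PFKP and PKM higher and SLC2A8, HK2 and LDHA lower, beside 18.0% of all genes, and C14R and WT for 2, HK2 higher and SLC2A8 lower, beside 9.47%. C14R and deletion did not overlap at day 0 for 4 genes, HK2 and LDHA higher and PFKP and PKM lower in C14R, beside 21.3%, and at day 18 for SLC2A8 only, beside 12.2%. PKM at day 18 was at 168 ± 10.4 FPKM in WT, 184 ± 3.43 in C14R and 181 ± 2.13 in deletion cells (SD, n = 3). LDHA at day 18 was at 95.3 ± 7.48, 117 ± 20.5 and 109 ± 3.53 FPKM.

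The C14R library of day 18 furthest from the group mean differed by gene, on the log2(FPKM + 1) scale. It was replicate 2 for LDHA (-0.304) and HK2 (-0.194) and replicate 1 for SLC2A8 (-0.177). For ALDOC (0.181) and SLC2A1 (0.0917) it was replicate 3. In replicate 2 of day 18, LDHA, HK2, PDK1 (a kinase that restrains pyruvate dehydrogenase) and VEGFA (the vascular growth factor, a hypoxia target) were all lower than in both other C14R libraries. VEGFA was at 12.8 FPKM there, beside 19.3 and 20.9, and PDK1 at 7.74, beside 10.3 and 10.2. VEGFA was named after its values were seen, and the other hypoxia targets are not given for that library. Nothing is therefore read from VEGFA or PDK1 about hypoxia targets as a set. Without that library, the difference of C14R from WT at day 18 went from 0.28 to 0.43 for LDHA and from 0.15 to 0.25 for HK2. Both then passed the threshold, and the count of all genes called went from 5 to 126. That library was the lowest of its group in LDHA and HK2, so nothing is read from these 2 passes. None of the 9 tested genes passed this comparison with any other single library left out, or under the other settings. Without C14R replicate 1 of day 18, the library that stood apart, the LDHA difference was 0.19.

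**Figure D4:**
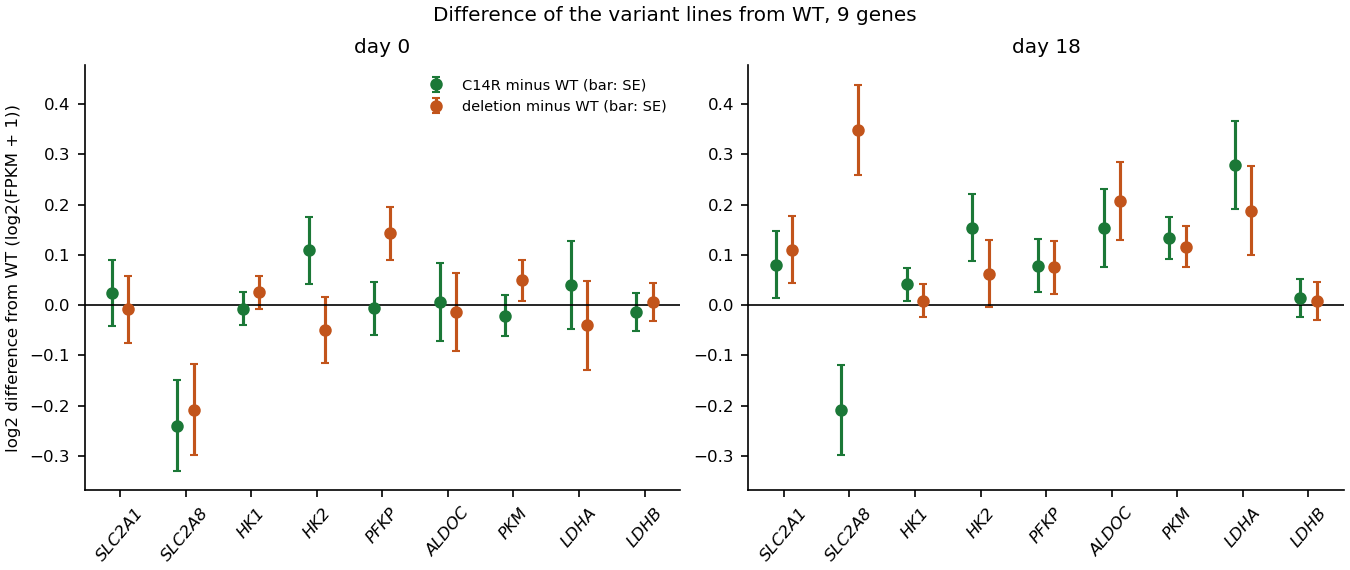
Log2 difference from WT on the log2(FPKM + 1) scale (vertical axes) of C14R and deletion cells at day 0 (left) and day 18 (right) for the 9 tested genes; points are differences and bars SE. SLC2A8 is lower than WT in both forms at day 0 and at 0.35 above it in deletion cells at day 18, and the LDHB points lie within 0.02 of 0 on both days.

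The other genes of the pathway were taken from 10 lists of 135 genes, of which 108 that are not among the 10 were tested. Adjusted p-values here are Benjamini-Hochberg values over all 13785 genes from limma. The lists and the rule for naming genes were written with earlier results of these data known. Most named genes were picked for large differences, so their adjusted p-values are a description and not independent evidence. From day 0 to day 18 in WT cells 35 rose, 53 fell and 20 did not pass, which is 81.5% called beside the 72.2% of all genes given above. In C14R cells 33 rose and 49 fell (75.9%), and in deletion cells 40 rose and 51 fell (84.3%). None passed in a comparison of the forms or in an interaction, where between 2 and 15 of the 108 had an unadjusted p under 0.05, beside 2.81% to 11.4% of all genes. With the small RNA genes left out 49 rose and 40 fell in WT cells, with 3 genes changing direction (DLAT, FH and RBM4), so the counts by direction depend on that scaling.

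Among the 6 tested transporters, 5 rose in WT cells, 0 fell, and SLC2A11 (0.06, adjusted p = 0.54) did not pass; the median log2 difference was 0.60. SLC2A13, a proton-coupled myo-inositol transporter, rose from 2.94 to 7.35 FPKM in WT cells (1.08, adjusted p = 1.51e-10), and its share of the family went from 9.81% to 21.7%. SLC2A4, the insulin-responsive GLUT4, rose by 0.82 (SE 0.12, adjusted p = 9.8e-06) but only to 1.80 FPKM. SLC2A6 rose by 0.61 (adjusted p = 0.00202).

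Of 15 other glycolytic enzyme genes, 9 fell and 5 rose in WT cells, and PFKL (0.20, adjusted p = 0.0862) did not pass. ENO1, the ubiquitous enolase, fell from 386 to 150 FPKM, by 1.36 on the log2 scale (SE 0.048, adjusted p = 7.49e-14). ENO2, the enolase known from neurons, rose from 49.4 to 98.7 FPKM (0.98, adjusted p = 8.83e-12). GAPDH, the dehydrogenase of the middle of the pathway, fell from 1242.5 to 683 FPKM (-0.87, adjusted p = 5.54e-10), and the mutase PGAM1 fell by 0.76 (adjusted p = 8.53e-09). The muscle mutase PGAM2 rose by 1.26 (adjusted p = 1.39e-07) and PKLR rose by 0.90 (adjusted p = 1.07e-05). In all 3 forms ENO1, GAPDH and PGAM1 fell and ENO2, PGAM2 and PKLR rose. The list's median was -0.34 in WT, -0.30 in C14R and -0.27 in deletion cells.

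Of 6 regulators of glycolytic flux, 2 rose and 2 fell in WT cells. PFKFB3, which makes the phosphofructokinase activator fructose 2,6-bisphosphate, fell from 10.4 to 3.97 FPKM (adjusted p = 3.7e-11). TIGAR, which breaks that activator down, fell by 0.79. TXNIP, an inhibitor of glucose uptake, rose from 95.5 to 121 FPKM (0.34, adjusted p = 1.16e-05), and PFKFB2 rose by 0.30.

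Of 17 genes for the fate of pyruvate and lactate, 6 rose and 7 fell in WT cells. SLC16A1 (MCT1), a lactate and pyruvate carrier, fell from 33.7 to 17.5 FPKM (adjusted p = 4.87e-11). PDK1 fell by 0.87 (adjusted p = 1.56e-07) and PC, pyruvate carboxylase, fell by 0.82. MPC2, a subunit of the mitochondrial pyruvate carrier, rose by 0.51, and PDP1 and PDHX, a phosphatase and a component of the pyruvate dehydrogenase complex, rose by 0.30 and 0.29.

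In the neighbouring routes, 5 of 7 pentose phosphate genes fell and 1 rose in WT cells; RPIA fell by 0.73, TKT by 0.44 and TALDO1 by 0.36, and PGD rose by 0.14 (adjusted p = 0.00745). Of 10 glycogen genes 6 fell and 4 rose. PGM2 fell by 1.15 and the branching enzyme GBE1 fell by 1.34 (adjusted p = 1.33e-09), while GYG2, a glycogenin, rose by 0.81 and the brain phosphorylase PYGB rose by 0.51. Of 16 citric acid cycle genes 10 fell and 2 rose. SUCLG2, a GTP-specific subunit of succinyl-CoA ligase, fell by 1.20 (adjusted p = 1.04e-09), SDHD by 0.74 and MDH2 by 0.70, while SUCLA2, its ATP-specific counterpart, rose by 0.29 and OGDH rose by 0.26.

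Of 14 other hypoxia targets, 5 rose and 4 fell in WT cells, with a median of -0.02. EGLN3, an oxygen-sensing prolyl hydroxylase, fell from 9.19 to 1.77 FPKM (adjusted p = 2.27e-11), and ADM and DDIT4 fell, at -1.81 and -1.43. NDRG1 rose by 1.29 (adjusted p = 9.12e-11), and BNIP3L and P4HA2 rose by 0.60 and 0.49. BNIP3 (0.05, adjusted p = 0.512) did not pass.

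Of 11 transcription factors known to act on glycolysis genes, 4 rose and 5 fell in WT cells. MYC fell from 20.8 to 0.451 FPKM, a log2 difference of -3.91 (SE 0.0971, adjusted p = 7.17e-16), and all 9 day 0 libraries were at 19.1 FPKM or more while all 9 day 18 libraries were at 0.846 or less. EPAS1 (HIF-2α) rose by 1.00 (adjusted p = 3.25e-09) and HIF1A rose by 0.41 (adjusted p = 3.03e-06). ESRRA fell by 0.91, while ESRRG rose by 0.25. Of 6 factors known to control PKM splicing, 5 fell and 1 rose. PTBP1, which is known to repress the M1 exon, fell from 66.9 to 25.2 FPKM (adjusted p = 5.43e-11), SRSF3 fell by 0.89 and HNRNPA2B1 by 0.68. Which PKM form was made was not analysed here.

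**Figure D5:**
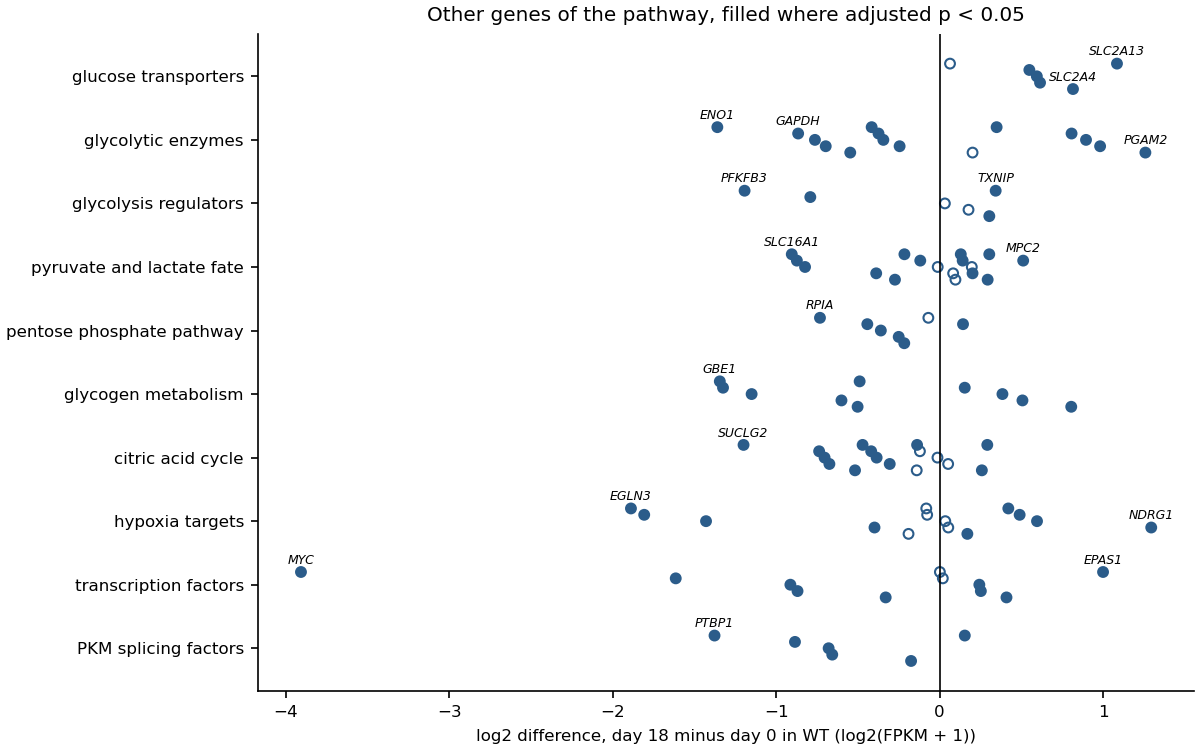
Log2 difference of day 18 minus day 0 in WT cells on the log2(FPKM + 1) scale (horizontal axis) for the 108 tested genes of the 10 lists (vertical axis, spread slightly within a list); filled points have an adjusted p under 0.05 and open points do not. Transporters lie to the right of 0, MYC lies furthest left at -3.91, and the glycolytic enzymes fall on both sides.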

How the data were processed

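RNA was measured in 18 libraries. Extraction used TRIzol and DNase I, ribosomal RNA was removed with Ribo-Zero, and NEBNext Ultra was used for the libraries, per the labels' protocols. Deposited by the authors was 1 table of FPKM per gene symbol; the submitters' processing notes name TopHat2, STAR, Cufflinks 2.2.1 and hg38. The annotation and use of strand are not given in the sources used here. Each column name was a sample title, and 0 columns lacked a sample. FPKM are not counts, so the depth of each library is unknown.

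Of 26372 symbols, 13785 with a mean of at least 1 FPKM were tested on log2(FPKM + 1), which understates the change of low genes, with limma 3.58.1 in R 4.3.3: 6 group means over all 18 libraries, empirical Bayes with trend, Benjamini-Hochberg adjustment within each of 11 comparisons, threshold 0.05. The code was tested on simulated data. The 10 genes, the gene lists and the rule for named genes (per list, up to 3 fully separated rises and 3 falls in WT cells, the isoenzymes of the 10, and the nearest gene by correlation) were chosen with earlier results of these data known. VEGFA, BNIP3, DLAT, FH and RBM4 were named after their values were seen. Some genes of the lists are not reported here.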

Additional observations from a re-analysis of the deposited data

Results flagged for a closer look

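In 4 of the 117 tested genes, the 108 of the lists and 9 of the 10 described here (3.42%), every deletion library lay on one side of all WT libraries at day 0 and on the other side at day 18, beside 170 of all 13785 tested genes (1.23%). The 9 were chosen with their levels in these groups known, and SLC2A8 and LDHA are among the 4, so nothing is read from these shares. The difference between the 2 days' effects is given as a description on the log2(FPKM + 1) scale, with no test, because the genes were picked for this pattern. For SLC2A8 (lower at day 0, higher at day 18) it was 0.556 (SE 0.128), and for LDHA, in the same directions, it was 0.228 (SE 0.125). For SLC2A12, a glucose transporter that was higher at day 0 and lower at day 18, it was -0.325. For HNRNPA1, a splicing factor that was lower at day 0 and higher at day 18, it was 0.151. The groups are 3 libraries each, and both effects use the WT libraries that the other comparisons use.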

How the results depend on the processing

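Of 781 values of the 9 genes under other settings, 724 moved by less than the spread between replicates, 54 by more (26 of them with small RNA genes left out) and 3 reversed: HK1 between the days, at 0.01429 in WT, 0.04074 in C14R and 0.008484 in deletion cells with small RNA genes left out. Of 1782 values with 1 library left out, 1769 moved by less, 13 by more and 0 reversed. Counts of all genes called moved as follows. For C14R against WT at day 0 (0) the count was 1 with a pseudocount of 0.1, 1 with quantile normalization and 1 with only the libraries compared; at day 18 (5) it was 10 without the filter and 2 with only the libraries compared. For deletion against WT at day 0 (4) it was 2 without the filter, 1 with a minimum mean of 5 FPKM and 2 with small RNA genes left out; at day 18 (10) it was 23 with a pseudocount of 0.1, 16 without the filter, 6 with a minimum of 5, 26 with quantile normalization, 6 with the replicate block and 2 with only the libraries compared. For C14R against deletion at day 18 (4) it was 13 without the filter and 2 with a minimum of 5. The C14R interaction (0) had 1 with a pseudocount of 0.1 and 1 with the replicate block, and the deletion interaction (2) had 1 with a minimum of 5 and 5 with only the libraries compared. The cause was not tested.

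With 1 library left out, the day comparison ranged over 9465 to 10323 genes in WT, 9478 to 10082 in C14R and 9563 to 10454 in deletion cells, and over 80 to 91, 80 to 83 and 86 to 92 pathway genes. C14R against WT ranged over 0 to 1 at day 0 and 4 to 126 at day 18 (0 to 4 pathway genes), deletion against WT over 2 to 5 and 2 to 51, C14R against deletion over 1 to 10 and 3 to 6, the C14R interaction over 0 to 2 and the deletion interaction over 2 to 3. The highest counts at day 18 were without C14R replicate 2 (126) and C14R replicate 1 (51). Deviations from the group means showed no pairing by replicate number. Same-numbered ones correlated at -0.363 to 0.168 over 45 pairs, 6 of them over 0.1, and 2 of 18 libraries correlated best with their own number. Differently numbered ones correlated at -0.169 to 0.268 over 90 pairs, 19 of them over 0.1. The small RNA share of summed FPKM at day 0 was 76.2% to 80.1% in replicate 1, 55.0% to 56.2% in replicate 2 and 55.7% to 79.4% in replicate 3. At day 18 it was 31.4% to 60.5% in replicate 1. Whether same-numbered libraries were handled together was not tested.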
